A study of Homo sapiens with 12 samples.

Results

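The genes of the mitochondrial respiratory chain were followed in 2 human retinoblastoma cell lines treated with THZ1. They were chosen by symbol: those starting with MT-, NDUF (assembly factors left out), UQCR or ATP5, the numbered COX4 to COX8 subunits, SDHA to SDHD, CYC1 and CYCS. This gave 105 genes of the 27505 features measured, 13 of them encoded in mitochondrial DNA and 92 in the nucleus. A filter on low counts left 98 of them for testing, all 13 mitochondrially encoded genes and 85 of the nuclear ones. WERI-Rb-1 (WERI below) and Y79 are established lines, both labelled wild type for genotype. Each stands for 1 tumour, so a difference between them is a difference between 2 lines. Cultures received 50 nM THZ1, a covalent inhibitor of the kinase CDK7, for 12 h, or 0.1% DMSO for the same time. There were 3 biological replicates in each of the 4 groups, WERI DMSO, WERI THZ1, Y79 DMSO and Y79 THZ1, and 12 RNA-seq libraries in all.

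The respiratory chain moves electrons from NADH and succinate to oxygen and uses the energy to make ATP. Complex I (NADH dehydrogenase) and complex II (succinate dehydrogenase) pass electrons by way of ubiquinone to complex III, cytochrome c carries them on to complex IV (cytochrome c oxidase), and complex V is the ATP synthase. Complexes I, III, IV and V are each built from subunits of both genomes: the mitochondrial mRNAs are made by the polymerase POLRMT inside the organelle, and the nuclear ones by RNA polymerase II, whose largest subunit CDK7 phosphorylates. Complex II and cytochrome c are encoded in the nucleus alone. Photoreceptors, the lineage that retinoblastoma resembles, are known for a high density of mitochondria.

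Libraries held 29677575 to 37433574 counts. Levels below are in CPM, counts scaled to 1000000 per library with TMM factors, which sets the bulk of genes equal between libraries. Under it the median log2 fold change over all 14865 tested Ensembl genes was -0.11 in WERI and -0.09 in Y79, and with library size as the only scaling it was -0.56 and -0.65. A direction below is therefore relative to the bulk of the other RNAs of a library, and the absolute amount per cell was not measured. In both lines, fewer cells and less RNA per cell cannot be told apart in such data. Of the photoreceptor-lineage markers, CRX, OTX2 and MYCN were present at 147 CPM or more in every library, while NRL was at 3.19 to 6.89 CPM in WERI and RCVRN at 17.4 to 20.2 CPM in Y79 DMSO. With THZ1 OTX2 (-1.53 and -1.94), CRX (-0.61 and -0.31) and MYCN (-0.39 and -0.79) fell in WERI and Y79, and RCVRN rose (1.04 and 1.24, log2). NRL rose in WERI (0.77) and was not called in Y79 (-0.0013). RB1 was at or near 0 in WERI and at 48.7 to 113 CPM in Y79. The 5 glial and pigment epithelium markers summed to 0.696 to 2.34 CPM in WERI DMSO, 0.711 to 1.62 in WERI THZ1, 3.92 to 5.80 in Y79 DMSO and 3.74 to 4.54 in Y79 THZ1, with TYR at 0 in every library. The 5 stromal and blood markers summed to 24.5 to 27.9 and 53.6 to 54.7 CPM in the WERI groups, nearly all of it COL1A1. In the Y79 groups they summed to 1.53 to 2.42 and 3.00 to 4.66 CPM. COL1A1 was the largest part there too, beside HBB at up to 0.666 CPM in Y79 DMSO and PTPRC at up to 0.685 CPM in Y79 THZ1. The part of these cells or transcripts in the results below was not tested.

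One library stood apart on these genes. In Y79 THZ1 replicate 2, 84 of the 85 tested nuclear members had the highest level of the 3 treated Y79 libraries, with a median log2 ratio of 0.60 to the mean of the other 2. Over all tested Ensembl genes the same median was 0.03, and 6178 of the 13641 genes above 0 in all 3 libraries were highest in replicate 2. No other library held more than 64 of the 85 nuclear members at one end of its group. Replicate 2 also had its own make-up of mitochondrial mRNAs, given below, and results that rest on it are given with and without it.

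Relative to transcript length, the 13 mitochondrially encoded mRNAs were the most abundant of the chain in WERI. Per kilobase of transcript, they spanned 731 (MT-ND3) to 5051 (MT-CO1) CPM in WERI DMSO, while the 79 nuclear-encoded subunits and cytochrome c spanned 7.71 to 301 with a median of 50.9. The lowest mitochondrial mRNA thus lay above the highest nuclear one, SDHC. Length here is the median of a gene's annotated coding transcripts, 460 bases for SDHC, so the order of nuclear genes depends on it. Without division by length, ATP5F1A (579 ± 12.9 CPM, SD, n = 3) was above both SDHC and MT-ND3 in WERI DMSO. In Y79 DMSO the mitochondrial range was 726 to 5800 CPM per kilobase, and 1 nuclear gene, ATP5F1A, reached above all of them at 6531. In WERI DMSO the order ran from MT-CO1 (5051 ± 201, SD, n = 3, CPM per kilobase) to MT-CO2 (4310 ± 282), MT-ND4L (3903 ± 228) and MT-ATP8 (3825 ± 73.1). MT-ND4L and MT-ATP8 differed by less than the spread of MT-ND4L. Reads from the shared bases of MT-ND4L with MT-ND4, and of MT-ATP8 and MT-CO3 with MT-ATP6, cannot be told apart, and every mitochondrial gene has named nuclear pseudogenes.

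THZ1 raised all 13 mitochondrially encoded mRNAs in both lines under TMM scaling. In WERI all 13 were called higher (edgeR quasi-likelihood test, adjusted p under 0.05), where 27.7% of all tested genes were called higher and 37.2% lower, and in Y79 all 13 again, where 29.9% were called higher and 38.5% lower. The log2 fold changes lay between 1.68 (MT-ND5) and 2.19 (MT-ND3) in WERI with a median of 1.86, and between 1.25 (MT-ND5) and 1.91 (MT-CO1) in Y79 with a median of 1.64. Treated and control libraries did not overlap for any of the 13 in either line, while 33.1% of all tested genes in WERI and 29.4% in Y79 lay wholly above their controls. With library size as the only scaling, and with DESeq2, all 13 were higher in both lines too.

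MT-CO1 encodes the catalytic core of cytochrome c oxidase and was the most abundant mitochondrial mRNA per length in WERI. It was at 7933, 8001 and 7432 CPM in the WERI DMSO libraries and at 31731, 28048 and 31864 CPM in the WERI THZ1 libraries. In Y79 it went from 8867, 8560 and 9403 CPM to 32359, 35298 and 32983 CPM. Every treated library lay far above every control library of its line, and the log2 fold change was 1.97 ± 0.09 (SE) in WERI and 1.91 ± 0.09 in Y79 (edgeR adjusted p = 1.14e-09 and 7.34e-10). MT-ND3, a small membrane subunit of complex I, lies at chrM:10059-10404 (GRCh38) and had the largest change in WERI. It rose there from 252, 258 and 250 CPM to 1103, 1056 and 1314 CPM, a log2 fold change of 2.19 ± 0.12 (SE; edgeR adjusted p = 3.65e-09). MT-ND5, another membrane subunit of complex I, had the smallest change in both lines. Its levels in Y79 went from 3136, 2819 and 3276 CPM to 8092, 5994 and 7934 CPM, with replicate 2 the lowest of the treated libraries, and its log2 fold change there was 1.25 ± 0.11 (SE; edgeR adjusted p = 3.1e-07).

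By complex, the mitochondrial medians were close in WERI: 1.81 for the 7 genes of complex I, 1.84 for MT-CYB of complex III, 1.97 for the 3 genes of complex IV and 1.84 for the 2 genes of complex V. In Y79 they were 1.72, 1.55, 1.87 and 1.36. MT-ND6 is the only one of the 13 on the opposite strand of the mitochondrial genome. Its count rose with the rest, by 1.79 ± 0.11 in WERI and 1.58 ± 0.11 in Y79 (log2, SE; edgeR adjusted p = 1.21e-08 and 2.37e-08). The libraries do not mark strand, so reads of MT-ND6 cannot be told from RNA of the other strand at the same bases.

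Measured against their own sum, a comparison that no scaling factor touches, few mitochondrial mRNAs were called. When each library was scaled to the sum of the 13, edgeR called 1 of them higher in WERI THZ1 (MT-ND3, 0.29 on the log2 scale) and none lower. The shares in WERI still shifted by small amounts. With THZ1 those of MT-ND1, MT-ND2, MT-ATP6, MT-ND5 and MT-CYB lay wholly below the controls. Those of MT-CO1, MT-CO3, MT-ND3, MT-ND4L and MT-ND4 lay wholly above, and those of MT-CO2, MT-ATP8 and MT-ND6 overlapped. MT-ND5 went from 7.09%, 6.92% and 7.09% to 5.99%, 6.12% and 5.96%. MT-ND4 went from 13.98%, 13.73% and 13.53% to 14.44%, 14.57% and 14.78%. In Y79 THZ1 edgeR called 3 lower, MT-ND5 (-0.45), MT-ATP8 (-0.44) and MT-ATP6 (-0.26), and none higher. Replicate 2 took part in this: MT-ATP8 made up 1.17% of mitochondrial counts against 2.25% and 2.08% in replicates 1 and 3, and MT-ND5 4.94% against 6.60% and 6.53%. MT-ND4L was at 1.57% in replicate 2 against 3.75% and 3.66%, while MT-CO3 was at 12.5% against 9.35% and 9.38%. MT-ND5 was lower in replicates 1 and 3 as well: its share was 8.38%, 8.11% and 8.26% in the Y79 controls. So was MT-ATP8, with 2.49%, 2.45% and 2.50% in the controls. MT-ATP6 was at 6.79% and 6.72% in replicates 1 and 3, against 7.75%, 7.66% and 7.75% in the controls.

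**Figure D1:**
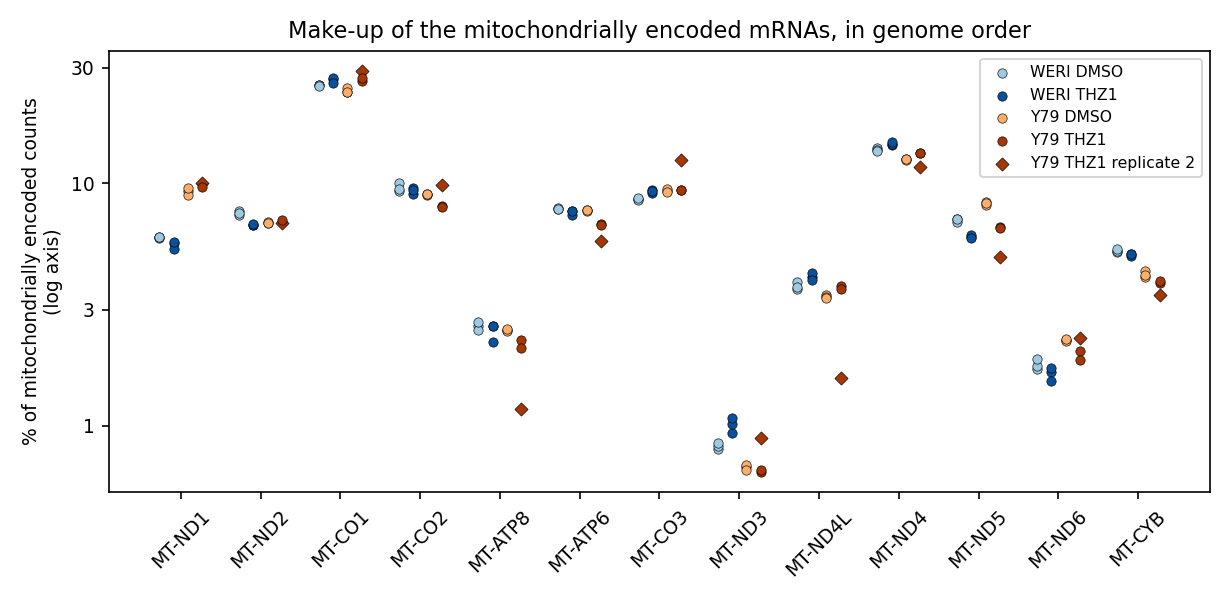
Share of each mitochondrially encoded mRNA in the summed counts of the 13 (%, log axis), in genome order, for each of the 12 libraries; diamonds mark Y79 THZ1 replicate 2. That library is low for MT-ATP8 (1.17%) and MT-ND4L (1.57%) and high for MT-CO3 (12.5%), while the other libraries of a group lie close together.

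The nuclear-encoded members rose as well, less far and less evenly. In WERI 67 of the 85 tested were called higher with THZ1, 8 lower and 10 were not called, and in Y79 64 were higher, 11 lower and 10 not called. Their median log2 fold change was 0.87 in WERI and 0.97 in Y79, against -0.11 and -0.09 over all tested genes. With library size as the only scaling 47 were higher and 16 lower in WERI and 46 higher and 21 lower in Y79. The shares of all genes were then 14.9% higher and 53.6% lower in WERI, and 14.6% and 56.1% in Y79. In Y79 without replicate 2 the counts were 60 higher and 15 lower and the median was 0.67, where 29% of all genes were higher and 39.7% lower. Across the lines, 61 members were higher in both, 8 were lower in both, and 1, NDUFC1, moved in opposite directions. Against the mitochondrial mRNAs the direction turned: with each library scaled to the summed 13, none of the 85 was called higher and 74 lower in WERI, and 2 higher and 60 lower in Y79. Under that scaling 0.747% of all genes were called higher and 89.7% lower in WERI, and 1.90% and 82.0% in Y79.

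**Figure D2:**
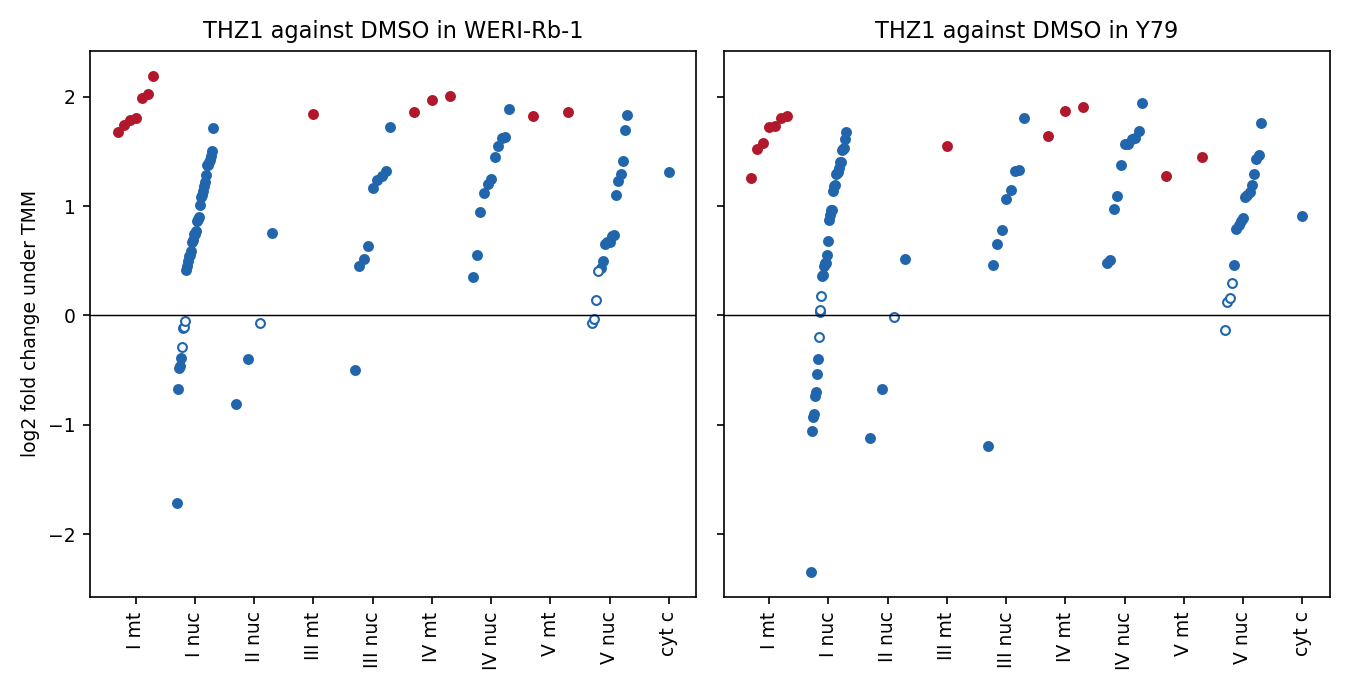
Log2 fold change with THZ1 under TMM scaling for each tested gene of complexes I to V and cytochrome c, by complex and genome of origin (mt, mitochondrial, red; nuc, nuclear, blue), in WERI (left) and Y79 (right); filled points were called and open points were not. The mitochondrial genes sit between 1.25 and 2.19, while the nuclear ones of complex I reach down to -2.35 (NDUFA8 in Y79).

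Complex I, the largest set with 37 of the 85 tested nuclear members, held most of those that fell. Of its 37 nuclear subunits, 28 were higher and 5 lower in WERI, and 25 were higher and 8 lower in Y79. Over all genes 27.7% were higher and 37.2% lower in WERI, and 29.9% and 38.5% in Y79. The same shares stand beside the counts of the other complexes below. NDUFA1, an accessory subunit of the membrane arm, had the largest rise in both lines. It was at 11.4, 13.3 and 12.6 CPM in WERI DMSO and at 40.3, 38.5 and 43.8 CPM in WERI THZ1, with no overlap. In Y79 it went from 52.4, 49.2 and 49.6 CPM to 139, 215 and 130 CPM. The log2 fold changes were 1.72 ± 0.16 and 1.68 ± 0.15 (SE; edgeR adjusted p = 4.79e-07 and 2.95e-07).

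NDUFA8, an accessory subunit of the complex I membrane arm, fell the most of all members in both lines. Its levels were 30.6, 35.9 and 35.2 CPM in WERI DMSO and 10.9, 8.81 and 11.2 CPM in WERI THZ1. In Y79 they were 34.0, 37.0 and 31.2 CPM without and 6.24, 8.09 and 5.82 CPM with THZ1. The controls of both lines overlapped and every treated library lay far below them, with log2 fold changes of -1.72 ± 0.13 in WERI and -2.35 ± 0.14 in Y79 (SE; edgeR adjusted p = 8.33e-08 and 4.49e-09). Of the 7 nuclear core subunits of complex I, the flavin and iron-sulfur proteins through which electrons run, 4 were higher and 2 lower in WERI, and 4 higher and 3 lower in Y79. NDUFS1, the largest iron-sulfur subunit, was at 114, 110 and 114 CPM in WERI DMSO and 82.2, 81.1 and 81.0 CPM in WERI THZ1. In Y79 it went from 156, 156 and 144 CPM to 80.1, 83.5 and 81.2 CPM, so the treated libraries of both lines came to lie at nearly the same level. NDUFV2, which carries an iron-sulfur cluster next to the NADH site, changed by -0.68 ± 0.12 in WERI and -1.06 ± 0.13 in Y79 (log2, SE; edgeR adjusted p = 0.000273 and 4.48e-06). NDUFB4 (-0.48 and -0.70) and NDUFA6 (-0.39 and -0.74), both accessory subunits, were the other complex I members lower in both lines, and the call of NDUFA6 in WERI was lost with RLE scaling (adjusted p = 0.0568).

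Complex II was mixed, with 1 of 4 subunits higher and 2 lower in each line. SDHD, a membrane anchor, was at 25.9, 26.1 and 26.3 CPM in WERI DMSO and at 14.5, 14.2 and 16.0 CPM in WERI THZ1. It went from 50.2, 51.3 and 50.2 CPM to 23.0, 28.1 and 18.8 CPM in Y79. Both falls were without overlap, at -0.81 ± 0.12 and -1.12 ± 0.12 (log2, SE; edgeR adjusted p = 3.7e-05 and 1.15e-06). SDHC, the other anchor, rose in WERI from 143, 136 and 137 CPM to 236, 232 and 235 CPM, and in Y79 from 153, 150 and 137 CPM to 215, 217 and 199 CPM, by 0.76 ± 0.06 and 0.52 ± 0.06 (log2, SE; edgeR adjusted p = 1.9e-07 and 6.37e-06). The 2 anchor subunits thus went in opposite directions in both lines under TMM, while SDHC in Y79 was at -0.05 with library size as the only scaling. SDHB, the iron-sulfur subunit, was lower (-0.40 and -0.68), though its call in WERI was lost with RLE factors (adjusted p = 0.0805), with DESeq2 (0.0739) and with Ensembl genes alone (0.0606). SDHA, the flavoprotein, was not called in either line (-0.07 and -0.01).

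In complex III 8 of 9 nuclear subunits were higher in each line. UQCRFS1, the Rieske iron-sulfur protein, was the exception. It was at 40.4, 43.3 and 42.3 CPM in WERI DMSO and 26.9, 33.2 and 28.8 CPM in WERI THZ1, and went from 40.6, 51.5 and 48.9 CPM to 21.0, 23.3 and 17.4 CPM in Y79. The treated libraries lay below the controls in both lines, at -0.50 ± 0.12 and -1.19 ± 0.12 (log2, SE; edgeR adjusted p = 0.00209 and 8.84e-07). UQCRQ, a small accessory subunit, rose the most of the 9, with 1.72 ± 0.23 in WERI and 1.80 ± 0.23 in Y79 (log2, SE; edgeR adjusted p = 4.4e-05 and 2.61e-05). Its Y79 THZ1 libraries were at 142, 273 and 129 CPM, all above the controls at 54.1, 48.9 and 52.5 CPM.

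Complex IV rose throughout: all 11 nuclear subunits were called higher in both lines. Each of the 11 has exon overlaps with other genes or named pseudogenes (17 for COX6C), so their counts are uncertain. COX6C, a small membrane subunit, led with 1.89 ± 0.19 in WERI and 1.95 ± 0.19 in Y79 (log2, SE; edgeR adjusted p = 2.75e-06 and 1.69e-06). Its WERI libraries were at 46.0, 54.8 and 49.8 CPM without and 181, 174 and 202 CPM with THZ1, and its Y79 libraries at 53.8, 63.2 and 57.8 CPM and at 185, 319 and 170 CPM. COX5A, a matrix-facing subunit, rose the least, from 70.4, 75.4 and 69.7 CPM to 93.5, 86.7 and 94.0 CPM in WERI (0.35 ± 0.14, log2, SE; edgeR adjusted p = 0.0394). That call did not hold without the filter on low counts (adjusted p = 0.0613), without any 1 of the 6 WERI libraries (0.0595 to 0.108) or without Y79 DMSO replicate 2 (0.0505), Y79 DMSO replicate 3 (0.0511) or Y79 THZ1 replicate 1 (0.0658). With library size as the only scaling COX5A was at -0.10 in both lines.

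In complex V 13 of 17 nuclear subunits were higher and none lower in each line. ATP5F1E, the small epsilon subunit of the F1 head, rose the most. It went in WERI from 40.7, 47.2 and 48.3 CPM to 154, 155 and 175 CPM, and in Y79 from 56.7, 54.9 and 56.5 CPM to 148, 277 and 144 CPM, by 1.83 ± 0.21 and 1.76 ± 0.21 (log2, SE; edgeR adjusted p = 7.42e-06 and 8.84e-06). ATP5MC3, which encodes the same c-ring protein as ATP5MC1 and ATP5MC2, had the lowest values, -0.07 and -0.13, and was not called. Without Y79 THZ1 replicate 2 it was called lower in Y79 (-0.36, edgeR adjusted p = 0.000102). ATP5MC1 (0.65 and 1.13) and ATP5MC2 (0.73 and 1.09) were called higher in both lines. CYCS, cytochrome c, rose in WERI from 92.2, 96.6 and 96.2 CPM to 223, 228 and 254 CPM, and from 162, 166 and 151 CPM to 292, 350 and 260 CPM in Y79. Its log2 fold changes were 1.31 ± 0.10 and 0.91 ± 0.10 (SE; edgeR adjusted p = 5.16e-08 and 1.25e-06), and its 40 named pseudogenes make its count uncertain.

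Tissue-restricted forms were scarce. COX6B2, the testis form of COX6B, was at 0.560 to 0.935 CPM in WERI DMSO and 3.28 to 3.85 CPM in WERI THZ1, and in Y79 at 1.54 to 2.66 and 10.8 to 11.8 CPM. NDUFA4L2, a relative of NDUFA4 known as a target of hypoxia signalling, was at 1.57 to 2.26 CPM in WERI DMSO and 7.08 to 8.70 CPM in WERI THZ1, and in Y79 at 0.506 to 0.666 and 2.74 to 4.75 CPM, and its exons overlap those of SHMT2. Their log2 fold changes of 2.25 and 2.07 in WERI and 2.42 and 2.58 in Y79 were the largest rises of the nuclear members in each line (both chosen for mention after their values were seen). They were also the 2 members called higher in Y79 when scaled to the mitochondrial mRNAs. Of the 7 members that failed the filter, the muscle form COX6A2 and COX7B2 had no count in any library, which allows up to 0.145 CPM in the shallowest one by the floor of 3 counts. COX4I2, the lung form of COX4, ATP5MGL, COX8C and the read-through genes ATP5MF-PTCD1 and NDUFC2-KCTD14 stayed at or below 1.53 CPM.

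**Figure D3:**
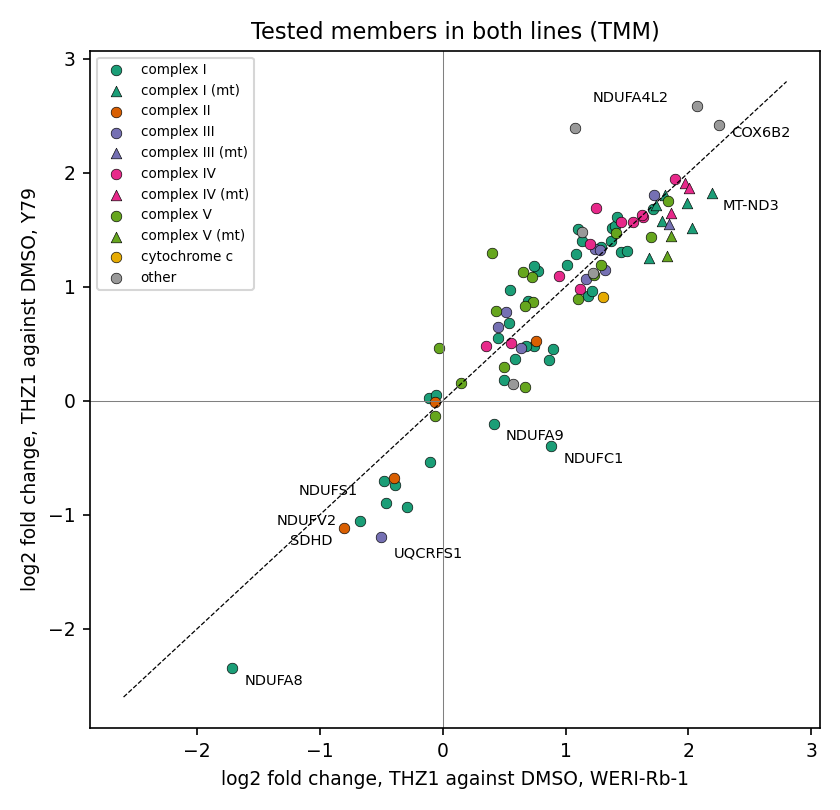
Log2 fold change with THZ1 in WERI (horizontal) and Y79 (vertical) for the 98 tested members; colour gives the complex, triangles are mitochondrially encoded, and the dashed line marks equal change. NDUFA8 is lowest in both lines, and NDUFC1 is higher in WERI (0.88) and lower in Y79 (-0.40).

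The promoters of the members that fell can be set beside those that rose. RefSeq promoter sequences (GRCh38.p14, 250 bases before to 50 after the gene start) were matched for 70 of the 92 nuclear members and searched on both strands for 3 strings: a palindromic core of the NRF1 site, which reads the same on both strands, CCGGAAG, an ETS site of the kind GABP binds, and AAGATGGCG, a YY1 site. A CCGGAAG and an AAGATGGCG match can share the letters AAG. NRF1 and GABP are known regulators of nuclear respiratory genes. The NRF1 string was found in 4 of the 70 promoters (5.71%), against 2.14% of the 11478 promoters of tested genes. The 4 are 3 of the 8 members lower in both lines (SDHD, NDUFB4, NDUFA8) and ATP5F1C, which was not called in either line. None of the 47 promoters of members higher in both lines held it. Only exact matches were counted, and near matches were not counted in any set. Some higher members hold a near match, such as gcgcatgcgt in ATP5PF and gggcatgcgc in COX5B, so the contrast depends on the exact string. The ETS string was in 27.1% of the members' promoters against 17.7%, in 16 of the 47 higher and 3 of the 8 lower ones, and the YY1 string was in 11.4% against 3.57%. A match is a match of letters, not a bound site, and the sets are small.

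Below are the stretches from 160 bases before to 6 bases into the gene for the 4 members with the NRF1 string, followed by the 4 members higher in both lines with 2 matches in that stretch, each 5′ to 3′ on the gene's own strand, with matches in capitals.
SDHD: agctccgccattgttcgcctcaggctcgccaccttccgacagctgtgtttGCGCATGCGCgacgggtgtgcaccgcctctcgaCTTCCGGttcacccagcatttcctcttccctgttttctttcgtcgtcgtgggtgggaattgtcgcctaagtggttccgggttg
NDUFB4: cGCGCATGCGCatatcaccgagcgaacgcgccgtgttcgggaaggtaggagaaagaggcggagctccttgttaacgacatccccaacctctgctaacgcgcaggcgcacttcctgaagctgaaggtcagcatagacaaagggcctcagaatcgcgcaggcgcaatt
NDUFA8: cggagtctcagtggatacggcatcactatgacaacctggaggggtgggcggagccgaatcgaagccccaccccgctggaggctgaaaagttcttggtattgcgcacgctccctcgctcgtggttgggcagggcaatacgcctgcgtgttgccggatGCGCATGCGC
ATP5F1C: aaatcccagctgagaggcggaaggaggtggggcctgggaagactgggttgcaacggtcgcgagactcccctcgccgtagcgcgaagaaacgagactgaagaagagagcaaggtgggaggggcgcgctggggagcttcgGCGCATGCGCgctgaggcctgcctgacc
UQCR11: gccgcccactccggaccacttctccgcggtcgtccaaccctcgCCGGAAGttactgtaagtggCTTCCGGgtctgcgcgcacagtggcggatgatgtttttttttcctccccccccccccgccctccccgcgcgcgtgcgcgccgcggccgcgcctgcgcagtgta
COX5B: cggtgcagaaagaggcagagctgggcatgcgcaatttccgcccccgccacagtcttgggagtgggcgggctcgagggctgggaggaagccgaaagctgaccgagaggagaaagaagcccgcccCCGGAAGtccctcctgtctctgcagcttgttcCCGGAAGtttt
ATP5PF: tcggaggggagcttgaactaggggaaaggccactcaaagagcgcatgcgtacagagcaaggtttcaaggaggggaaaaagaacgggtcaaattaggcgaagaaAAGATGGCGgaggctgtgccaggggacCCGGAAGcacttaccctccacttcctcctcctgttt
NDUFS3: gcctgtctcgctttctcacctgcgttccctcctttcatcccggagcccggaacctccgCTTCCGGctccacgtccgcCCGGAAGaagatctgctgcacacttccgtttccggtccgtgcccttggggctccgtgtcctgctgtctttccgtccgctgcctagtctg
The stretches are chr11:112086713-112086878 (plus strand) for SDHD, chr3:120596176-120596341 (plus) for NDUFB4, chr9:122159774-122159939 (minus) for NDUFA8 and chr10:7788017-7788182 (plus) for ATP5F1C. Those of the higher members are chr19:1605457-1605622 (minus) for UQCR11, chr2:97645902-97646067 (plus) for COX5B, chr21:25735049-25735214 (minus) for ATP5PF and chr11:47578914-47579079 (plus) for NDUFS3. In NDUFA8 the NRF1 string crosses the RefSeq gene start.

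Within each complex the balance of nuclear to mitochondrial counts shifted towards the mitochondrial genome, and this ratio does not depend on any scaling. Complex I had 11, 12.3 and 12.8 nuclear counts per 100 mitochondrial counts in WERI DMSO and 5.44, 5.66 and 5.31 in WERI THZ1. In Y79 it had 13.7, 15 and 12.8 without and 6.27, 11.3 and 6.24 with THZ1. All treated libraries lay below all controls of their line, and replicate 2 was the highest treated one in Y79. Complex IV went from 4.601 ± 0.345 (SD, n = 3) to 3.02 ± 0.0535 in WERI, and in Y79 from 6.23 ± 0.291 to 4.63 ± 0.915, also with no overlap, a fold of 1.53 and 1.35. In WERI that was the smallest fold of the 4 complexes with subunits of both genomes. In Y79 complex V had a fold of 1.40, and 1.32 without ATP5F1A. Complex III went from 35.5 ± 1.34 to 18.2 ± 0.786 in WERI. In Y79 its controls were at 55.3, 64.1 and 55.6 and its treated libraries at 32.7, 57.1 and 30.4, so replicate 2 lay within the control range.

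Complex V in Y79 was set by 1 gene. It had 56.2 ± 2.22 (SD, n = 3) nuclear counts per 100 mitochondrial counts in WERI DMSO and 413 ± 31.4 in Y79 DMSO, and without ATP5F1A 38.1 ± 1.64 and 51.2 ± 4.45. With THZ1 it fell to 29.6 ± 1.80 in WERI. In Y79 the treated libraries were at 234, 419 and 235 against controls at 411, 446 and 383, again with replicate 2 among the controls. Without ATP5F1A the WERI ratio was 21.2 ± 1.23 with THZ1, and the treated Y79 libraries were at 30.5, 54.8 and 30.6. The share of all counts was larger with THZ1 also for the nuclear members: those without ATP5F1A went from 0.554% ± 0.0241 to 0.770% ± 0.0268 in WERI, and in Y79 from 0.760% ± 0.00697 to 0.994% ± 0.166 (SD, n = 3).

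**Figure D4:**
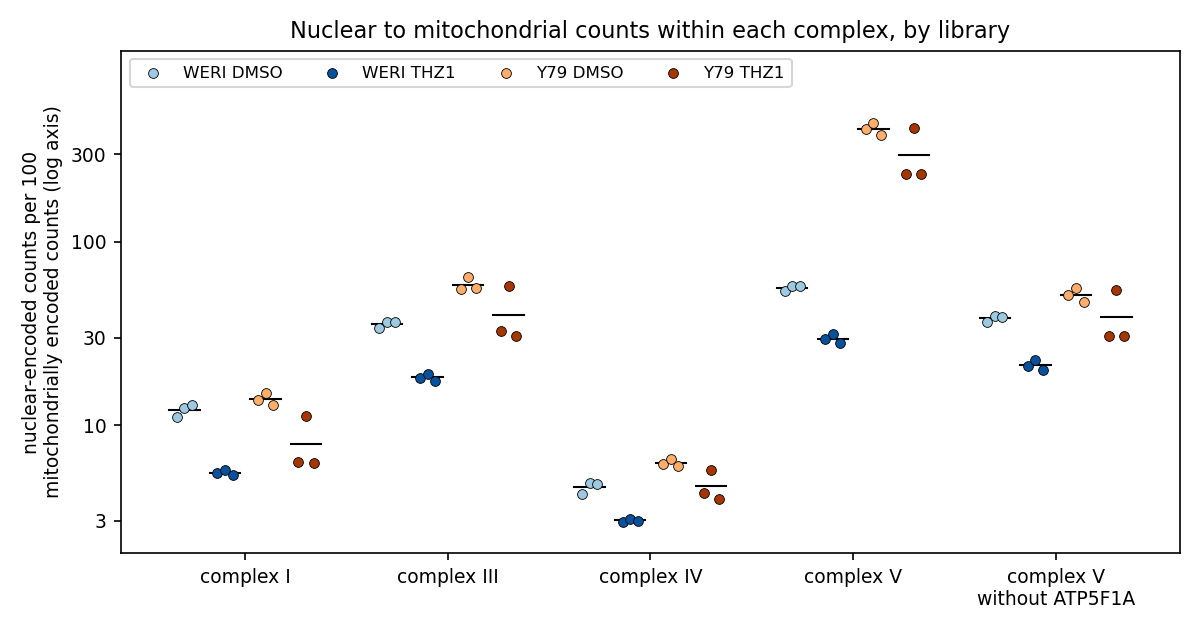
Nuclear-encoded counts per 100 mitochondrially encoded counts of the same complex (log axis), for each library, with lines at the group means; complex V is shown with and without ATP5F1A. In WERI every treated library lies below every control, and in Y79 replicate 2 of THZ1 stands above the other 2 treated libraries in each complex.

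The change with THZ1 differed between the lines for few members when all libraries were used. The difference (Y79 minus WERI) was called by edgeR for none of the 13 mitochondrial genes, with 4 at an unadjusted p under 0.05 and 2, MT-ATP6 and MT-ND5, called lower by DESeq2. It was called for 7 of the 85 nuclear ones, 6 lower and 1 higher, where 13.2% of all genes were called lower and 8.74% higher. NDUFC1, a small membrane subunit of complex I, had the largest called difference. It was at 18.4, 19.7 and 17 CPM in WERI DMSO and at 33.1, 31.5 and 37.0 CPM in WERI THZ1. In Y79 it was at 12.7, 11.9 and 12.8 CPM without and at 7.83, 11.8 and 8.77 CPM with THZ1. The WERI libraries were all higher with treatment and the Y79 ones all lower, replicate 2 only just. The difference was -1.28 ± 0.19 (log2, SE; edgeR adjusted p = 0.000492), and it was called under every alternative run. The fall within Y79 alone (-0.40, adjusted p = 0.0195) was not called with RLE factors (0.0824), DESeq2 (0.0659), Ensembl genes alone (0.0655), or without Y79 THZ1 replicate 1 (0.0839) or replicate 3 (0.0615).

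Those with a lower change in Y79 also included UQCRFS1 (difference -0.69 ± 0.17), NDUFA8 (-0.63 ± 0.19), NDUFA9 (-0.61 ± 0.15) and NDUFS1 (-0.43 ± 0.08; log2, SE), with edgeR adjusted p of 0.0118, 0.0338, 0.0122 and 0.00247. NDUFA9, an accessory subunit of complex I, rose in WERI (0.41 ± 0.11) and was not called in Y79 (-0.20 ± 0.11, log2, SE). The 1 higher was NDUFA10 (0.36 ± 0.12, SE; edgeR adjusted p = 0.0498), named after its value was seen. The call of NDUFA8 was lost without any 1 of 9 libraries (adjusted p 0.0513 to 0.0867).

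This result turned on 1 library. Without Y79 THZ1 replicate 2, the difference was called lower for 39 of the 85 nuclear members and higher for 3, where 20% of all genes were then called lower and 14.3% higher. The median difference over the nuclear members was 0.01 with all libraries and -0.27 without that one, while over all genes it was -0.01 and -0.04. The mitochondrial genes called lower numbered 5 (MT-ND3, MT-ND5, MT-CO3, MT-ATP6 and MT-ATP8). Without Y79 THZ1 replicate 1 or replicate 3 in its place, 4 nuclear members were lower in each case, and 3 and 8 higher. NDUFA10 was not called higher without any 1 of the 9 libraries of the other groups. Leaving out WERI THZ1 replicate 2 gave 1 mitochondrial gene lower, MT-ATP6 (-0.49, edgeR adjusted p = 0.0362). The cause of the deviation of replicate 2 was not tested.

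In the DMSO controls, Y79 held more nuclear-encoded respiratory mRNA than WERI. There 61 of the 85 nuclear members were higher in Y79 and 2 lower (NDUFC1 and NDUFA4L2), where 32.3% of all genes were higher and 32.6% lower. The nuclear median was 0.60 on the log2 scale, and that of all genes was 0.00. Higher members came to 23 of 37 in complex I, 3 of 4 in complex II, 7 of 9 in complex III, 9 of 11 in complex IV and 14 of 17 in complex V. With scaling to the mitochondrial mRNAs 35 of the 85 were higher, and 18.2% of all genes. Of the 13 mitochondrial genes 5 were higher in Y79 and none lower, with a median of 0.20. MT-ND1, a complex I subunit next to the ubiquinone channel, differed most: 1852, 1883 and 1764 CPM in WERI against 3473, 3104 and 3785 CPM in Y79 (0.91 ± 0.10, log2, SE; edgeR adjusted p = 3.03e-06). The others were MT-ND6 (0.62), MT-ND5 (0.51), MT-CO3 (0.39) and MT-ATP6 (0.26), the last with an adjusted p of 0.042 that missed the threshold with library size alone (0.458), without the filter (0.0515) and without any 1 of 8 libraries (0.0541 to 0.152).

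ATP5F1A, the catalytic-head alpha subunit of ATP synthase, was far apart from all other members. It was at 567, 593 and 576 CPM in WERI DMSO and at 13808, 13706 and 13658 CPM in Y79 DMSO, a log2 difference of 4.57 ± 0.13 (SE; edgeR adjusted p = 5.07e-12). Its counts made up 0.0730% ± 0.00150 of all counts in WERI DMSO and 1.55% ± 0.00846 in Y79 DMSO (SD, n = 3), where it ranked 1 among Ensembl genes by count against 91 in WERI DMSO. THZ1 raised it in both lines, by 0.73 ± 0.12 and 0.87 ± 0.12 (log2, SE; edgeR adjusted p = 7.39e-05 and 1.31e-05), to 22524, 30721 and 21882 CPM in Y79.

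The genes beside it on chromosome 18 were higher in Y79 too (a comparison chosen after the value of ATP5F1A was seen). ATP5F1A lies at chr18:46080248-46104334 (GRCh38, minus strand). HAUS1, whose product belongs to the augmin complex of the spindle, stood at 60.5 ± 2.57 CPM in WERI DMSO and 1237 ± 45.7 CPM in Y79 DMSO (SD, n = 3; 4.35 on the log2 scale). Its annotated exons overlap those of ATP5F1A only at bases 46104332 to 46104334. C18orf25, which starts 93.3 kb on, stood at 77.7 ± 4.45 and 1028 ± 28.6 CPM (3.73). LOXHD1 was barely detected, at 2.27 ± 0.353 CPM in Y79 and 0.110 ± 0.151 CPM in WERI. PSTPIP2, the neighbour on the other side, differed by 1.29, and farther out the values were mixed. EPG5 (-0.09) and ST8SIA5 (0.63) were not called, RNF165 (-0.86) and PIAS2 (-0.29) were lower in Y79, and KATNAL2 was higher by 1.62, at 1.58 ± 0.328 CPM in WERI DMSO and 4.88 ± 0.777 CPM in Y79 DMSO (SD, n = 3). RNF165 lies between C18orf25 and LOXHD1. Within Y79, THZ1 raised C18orf25 (1.15) and lowered HAUS1 (-0.94), while ATP5F1A rose by 0.87. DNA copy number was not measured in these libraries, and its part in the difference was not tested.

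**Figure D5:**
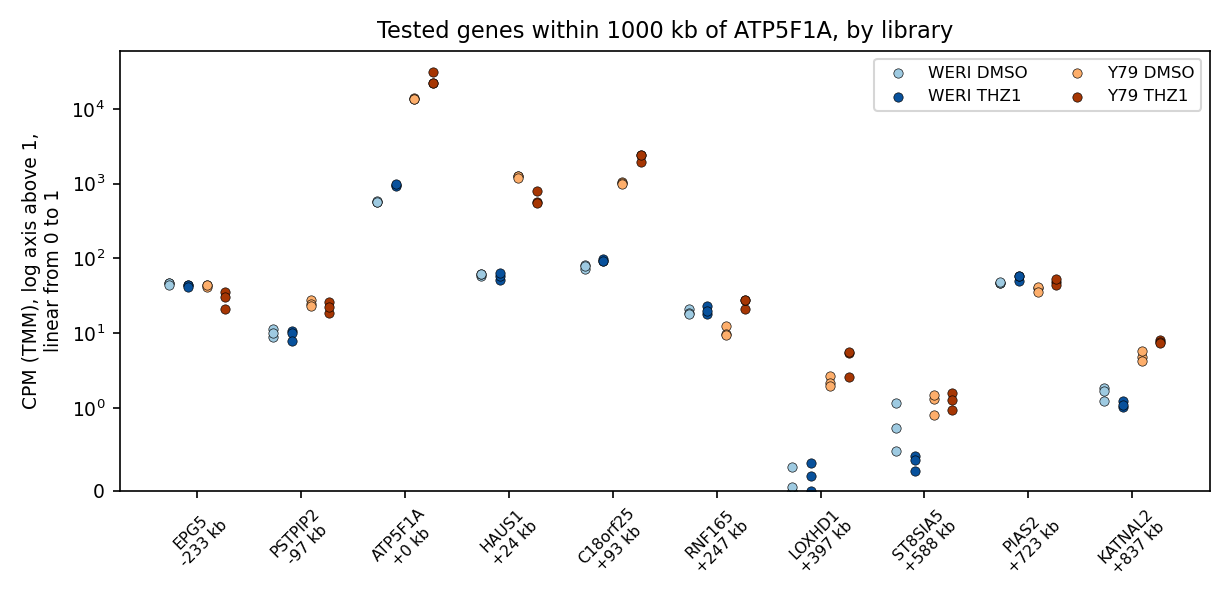
CPM of the tested genes within 1000 kb of ATP5F1A in each library (log axis above 1, linear from 0 to 1), ordered by position, with the distance from ATP5F1A in kb. ATP5F1A, HAUS1 and C18orf25 are 3.73 to 4.57 log2 units higher in Y79 DMSO than in WERI DMSO, and EPG5 and PIAS2 lie close together in both lines.

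The other nuclear members with the largest line differences were NDUFA1 (2.02), NDUFS5 (1.98), COX4I1 (1.72), ATP5ME (1.36) and UQCRH (1.23; log2), all called. NDUFS5, an accessory subunit facing the intermembrane space, was at 43.2, 48.5 and 48.2 CPM in WERI DMSO and at 183, 181 and 187 CPM in Y79 DMSO. COX4I1, the common form of the COX4 subunit, was at 57.3, 64.9 and 60.6 CPM against 208, 193 and 200 CPM. In neither case did the lines overlap.

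Genes that build and regulate the chain were looked at as lists. Of 52 assembly factors, 14 were higher and 20 lower in WERI and 15 higher and 26 lower in Y79, with medians of -0.16 and -0.25. Over all genes 27.7% were higher and 37.2% lower in WERI and 29.9% and 38.5% in Y79, and the list's shares of higher members in both lines and of lower members in WERI lie near these. The 3 largest changes were the same genes in both lines: SDHAF2, which helps insert the flavin into SDHA, TMEM70, which acts in ATP synthase assembly, and COA4, a factor for cytochrome oxidase. SDHAF2 went in WERI from 14.8, 17.9 and 15.6 CPM to 4.16, 3.66 and 3.62 CPM, and from 25.6, 22.8 and 23.2 CPM to 2.24, 3.20 and 3.16 CPM in Y79, without overlap (-2.07 and -3.06, log2). TMEM70 changed by -1.93 and -2.98 and COA4 by -1.77 and -2.72.

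Of 30 genes of mitochondrial DNA maintenance, transcription and translation, 4 were higher and 19 lower in WERI and 4 higher and 23 lower in Y79 (medians -0.51 and -0.78), beside 27.7% of all genes higher and 37.2% lower in WERI and 29.9% and 38.5% in Y79. POLRMT, the mitochondrial RNA polymerase, was at 48.2, 50.5 and 49.4 CPM in WERI DMSO and 42.5, 36.5 and 34.4 CPM with THZ1 (-0.38 ± 0.10, log2, SE; edgeR adjusted p = 0.0052), and was not called in Y79 (-0.05). TFAM, which packages and activates mitochondrial DNA, was not called in WERI (-0.11) and fell in Y79 (-0.48). TEFM, the elongation factor, fell in both (-0.74 and -0.55). LRPPRC, which stabilizes mitochondrial mRNAs, was among the 4 that rose: in WERI from 328, 323 and 313 CPM to 453, 453 and 462 CPM (0.50), and from 500, 532 and 491 CPM to 588, 626 and 571 CPM in Y79 (0.23). With library size as the only scaling LRPPRC was at 0.06 and -0.34. SLIRP, of the same list and named after its values were seen, fell in both lines (-0.79 and -1.47). The largest falls were TACO1, a translational activator of MT-CO1, at -3.00 and -3.49, the helicase TWNK at -1.72 and -2.02 and MTERF3, a repressor of mitochondrial transcription, at -1.60 and -2.34 (log2).

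Of 12 nuclear regulators of respiration, 11 were lower and none higher in WERI, and 7 were lower and 1 higher in Y79, where 37.2% of all genes were lower in WERI and 38.5% lower and 29.9% higher in Y79. NRF1 fell in WERI from 22.7, 23.0 and 24.5 CPM to 8.50, 9.15 and 8.66 CPM, and from 25.3, 23.8 and 25.0 CPM to 9.88, 14.4 and 14.1 CPM in Y79 (-1.41 ± 0.13 and -0.95 ± 0.13, log2, SE; edgeR adjusted p = 3.5e-07 and 1.32e-05). Of the GABP subunits, GABPA fell in WERI (-0.29) and was not called in Y79 (-0.11), and GABPB1 fell in both (-1.83 and -1.70). GABPB2 fell in WERI (-0.54) and was the 1 that rose in Y79 (0.45, edgeR adjusted p = 0.00183), where it was at -0.11 with library size as the only scaling. The transcription factor CREB1 (-1.75 and -1.29) and the coactivator PPRC1 (-1.43 and -1.85) fell in both lines. PPARGC1A, the coactivator known for mitochondrial biogenesis in muscle and fat, was at or below 1.24 CPM in every library and was not called (-0.52 and -0.80).

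Ribosomal proteins of the cytosol and of the mitochondrion were set beside the chain as other families of small, abundant subunits. The cytosolic ones were higher in 78 of 83 tested in WERI and 79 of 83 in Y79 (medians 1.54 and 1.90), beside 27.7% and 29.9% of all genes. The mitochondrial ribosomal proteins, which are nuclear-encoded and make the mitochondrial proteins, were lower in 51 of 77 and 60 of 77 (medians -0.63 and -1.12), beside 37.2% and 38.5% of all genes. Neither difference between families was tested.

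Length went with the size of the change. Among 79 nuclear subunits, the 27 with the shortest transcripts (323 to 632.5 bases, the median of a gene's coding transcripts) had a median log2 fold change of 1.01 in WERI and 1.10 in Y79, and the 27 longest (930 to 4502.5 bases) 0.64 and 0.65. All tested genes in those ranges had medians of 0.91 and 1.17 for the short and -0.11 and -0.11 for the long range. By median the short members thus lay near other short transcripts, and the long ones above other long transcripts. The 25 members of middle length had medians of 0.88 and 0.98, and all tested genes of that range 0.43 and 0.46. Of the 27 short members 26 and 25 were called higher, beside 148 and 170 of the 274 tested genes in that range. Of the 27 long ones 17 and 16 were higher, beside 3109 and 3241 of 10932. The part of length in the result was not tested.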

How the data were processed

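RNA was sequenced from 12 cultures with a kit that does not mark strand, per the labels' protocols. The deposited table holds raw read counts per gene made by the authors; Cufflinks and GRCh38 are named in the submitters' processing notes, while the sources used here name no aligner or counting rule. Reads of overlapping genes, and of genes with pseudogene copies (79 nuclear members), may therefore be shared or lost.

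Counts were tested with edgeR 4.0.16 in R 4.3.3 (TMM scaling, filterByExpr, quasi-likelihood test, all 12 libraries, 8 residual degrees of freedom), with Benjamini-Hochberg adjustment over all tested features, unannotated loci included. Calls were made where the adjusted p was under 0.05, and counts of genes cover Ensembl genes. SE is the log2 fold change over the root of the F statistic. The fit was tested on simulated counts of 18844 features: for THZ1 in WERI it recovered 84.0% of 2-fold and 37.5% of 1.5-fold changes. Only 50 features per fold size were changed there, as many up as down, with a common spread and no shift of the bulk. These rates may not hold for the data here, where many genes changed. DESeq2 1.42.0, other scalings, no filter, a replicate block and leaving out each library were the alternatives. Gene positions, lengths and overlaps come from GENCODE 29.

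Members named are the 13 mitochondrial mRNAs; per complex and line the nuclear subunits with the highest and lowest fold change at an average log2 CPM of at least 3; those lower in both lines or in opposite directions; the 6 with the smallest adjusted p for the difference; the 6 largest line differences; fixed regulators; and the 3 largest changes per list. One member that this rule names is not reported here. The members and lists were chosen with earlier results of these data known.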

Additional observations from a re-analysis of the deposited data

Results flagged for a closer look

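For the 5 nuclear members given here the change with THZ1 differed between the lines by the interaction term of the edgeR fit (Y79 minus WERI, log2). NDUFC1 differed by -1.28 (0.88 in WERI and -0.40 in Y79, adjusted p = 0.000492). UQCRFS1 differed by -0.69 (-0.50 and -1.19, adjusted p = 0.0118 by edgeR). NDUFA8 differed by -0.63 (-1.72 and -2.35, adjusted p = 0.0338 by edgeR). That call was lost without any 1 of 9 libraries (0.0513 to 0.0867), with the replicate block (0.0504) and with scaling to the mitochondrial mRNAs (0.164). NDUFA9 differed by -0.61 (0.41 and -0.20, adjusted p = 0.0122 by edgeR). NDUFS1 differed by -0.43 (-0.47 and -0.90, adjusted p = 0.00247 by edgeR). With that scaling the calls of UQCRFS1 (0.110), NDUFA9 (0.105) and NDUFS1 (0.262) were lost too, and that of NDUFC1 was not. All 5 are in complex I or III, which hold 37 and 9 of the 85 tested nuclear members. Without Y79 THZ1 replicate 2 the difference was called lower for 39 of the 85, where 20% of all genes were called lower.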

How the results depend on the processing

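All 13 mitochondrial mRNAs stayed higher with THZ1 in both lines under library size scaling, RLE factors, DESeq2, no filter, Ensembl genes alone, the replicate block and each of the 12 leave-outs. Scaling to the mitochondrial mRNAs turned the nuclear counts to 0 higher and 74 lower in WERI and to 2 and 60 in Y79, and the members higher in Y79 DMSO to 35. Library size scaling gave 16 lower in WERI and 21 in Y79. For the difference between lines, the mitochondrial members called lower were 3 with library size and 2 with DESeq2. The nuclear members called higher were 0 with library size, RLE, no filter and the replicate block, 2 with DESeq2 and 7 with mitochondrial scaling, and those called lower were 15 with library size and 1 with mitochondrial scaling. Leaving out each library gave 0 to 5 mitochondrial members lower, 0 to 8 nuclear members higher and 4 to 39 lower, and in WERI 62 to 68 nuclear members higher and 7 to 9 lower, in Y79 60 to 65 and 10 to 15. The cause was not tested.

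With library size scaling log2 fold changes turned to -0.047 for SDHC in Y79, -0.10 for COX5A in both lines and -0.037 for NDUFA9 in WERI. With mitochondrial scaling they turned, in WERI and Y79, to -0.19 and -0.029 for NDUFA1, -1.14 and -1.19 for SDHC, -1.55 and -1.23 for COX5A, -0.59 and -0.80 for CYCS, -1.17 and -0.84 for ATP5F1A, -0.89 and -0.52 for NDUFS5, -0.66 and -0.020 for COX4I1, -0.21 and -0.27 for ATP5ME and -0.66 and -0.38 for UQCRH. In WERI alone they turned to -0.18 for UQCRQ, -0.014 for COX6C, -0.072 for ATP5F1E, -1.02 for NDUFC1 and -1.49 for NDUFA9.

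The nuclear share of counts over Ensembl genes alone was 0.899% in WERI THZ1 and 2.37% in Y79 DMSO. Without ATP5F1A, an alternative chosen after seeing the data, it was 0.554%, 0.770%, 0.760% and 0.994% in WERI DMSO, WERI THZ1, Y79 DMSO and Y79 THZ1. In that order, nuclear counts per 100 mitochondrial counts without ATP5F1A were 38.1, 21.2, 51.2 and 38.6 for complex V and 12.8, 6.58, 16.3 and 9.98 for all complexes. Without members that have copies or overlaps they were 1.51, 0.464, 1.64 and 0.685 for complex I, 13.7, 6.02, 20.5 and 11.9 for complex III, 1.52, 0.630, 2.17 and 1.79 for complex V and 1.498, 0.552, 1.79 and 0.862 for all. No such member was left in complex IV. Over all complexes 10 nuclear subunits were left, and their fall against the mitochondrial counts was 2.71-fold in WERI and 2.08-fold in Y79. With every member it was 1.97-fold and 1.74-fold. Only for complex V in Y79 was the fall smaller without such members, 1.21-fold against 1.40-fold.

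Replicate numbers did not pair the samples: correlations of the deviations of 6 same-numbered pairs of a line lay between -0.0438 and 0.00459. The replicate block moved 1 single-gene call, the difference of NDUFA8 (adjusted p = 0.0504 by edgeR).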
